A study of Mus musculus with 10 samples.

Results

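Complement components in differentiating osteoblasts were examined through 9 genes, C1ra, C1s1, C2, C3, C4b, Cfb, Cfd, Serping1 and Cd55, out of the 40620 genes of the count table. The genes were chosen by name, with earlier results of these data known, and all 9 were found by their Ensembl identifiers. The same holds for the gene lists used below, so shares of called genes in them are descriptive. RNA was sequenced from MC3T3-E1 cells, a clonal pre-osteoblast line from mouse calvaria, as 51 bp paired-end reads. There were 5 stages with 2 libraries each, named replicates A and B. Subconfluent and confluent cells were kept in growth medium, and serum was at 10% in all 5 stages. Cells at 24h, 14d and 21d were kept after confluence in differentiation medium, which held ascorbic acid (50 µg/ml) and β-glycerophosphate (10 mM). All libraries came from this 1 line with no genetic change, and the labels do not say whether replicates were separate cultures, so the tests measure the spread between these libraries.

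Complement is a cascade of plasma proteins that marks surfaces for uptake, attracts leukocytes and can perforate membranes. The classical pathway starts when C1q binds its target and activates the proteases C1r and C1s, which cleave C4 and C2 to form a C3 convertase. The alternative pathway forms its own convertase from C3b and factor B after cleavage by factor D. Each route converges on C3, and inhibitors such as C1 inhibitor and CD55 restrain it. The liver is the main source of the plasma proteins, and stromal cells, osteoblasts among them, are known to make some of them locally.

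Levels are given as RPKM, as deposited, which divides the reads of a gene by its length and by the depth of the library, so that genes of unequal length can be set side by side. Changes were tested on the counts in edgeR with its quasi-likelihood test, and a gene was called at an adjusted p-value under 0.05 with a change of more than 2-fold. Between 44736156 and 162939333 counts fell on genes per library. The column names give the subconfluent, confluent and 24h libraries index sequences that the 14d and 21d libraries do not have. Stage and library set therefore cannot be told apart in any comparison across this line. All 8 osteoblast markers exceeded a mean of 10 RPKM in some stage, and their summed level was between 5101 and 7875 RPKM up to 24h and between 9482 and 16140 RPKM at 14d and 21d.

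Of the 9 members, 7 passed the filter on low counts and 2, Cfd and Cd55, did not. The members differed by orders of magnitude in level. At 21d the order was C1s1, C1ra, C3, C4b, Cfb, Serping1 and C2, and only the last pair overlapped in their libraries. In subconfluent cells C1ra and C1s1 already had means of 190 and 220 RPKM, beside 256 and 360 RPKM at 21d. C3 ranked 20856 of 40602 genes by mean RPKM in subconfluent cells. By 21d C3 ranked 5457. Between subconfluent cells and 21d, 4 of the 7 tested members were called, all higher, where 27.6% of all genes tested were called in either direction. The F test over the 5 stages passed 4 of 7, beside 48.9% of all genes.

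**Figure D1:**
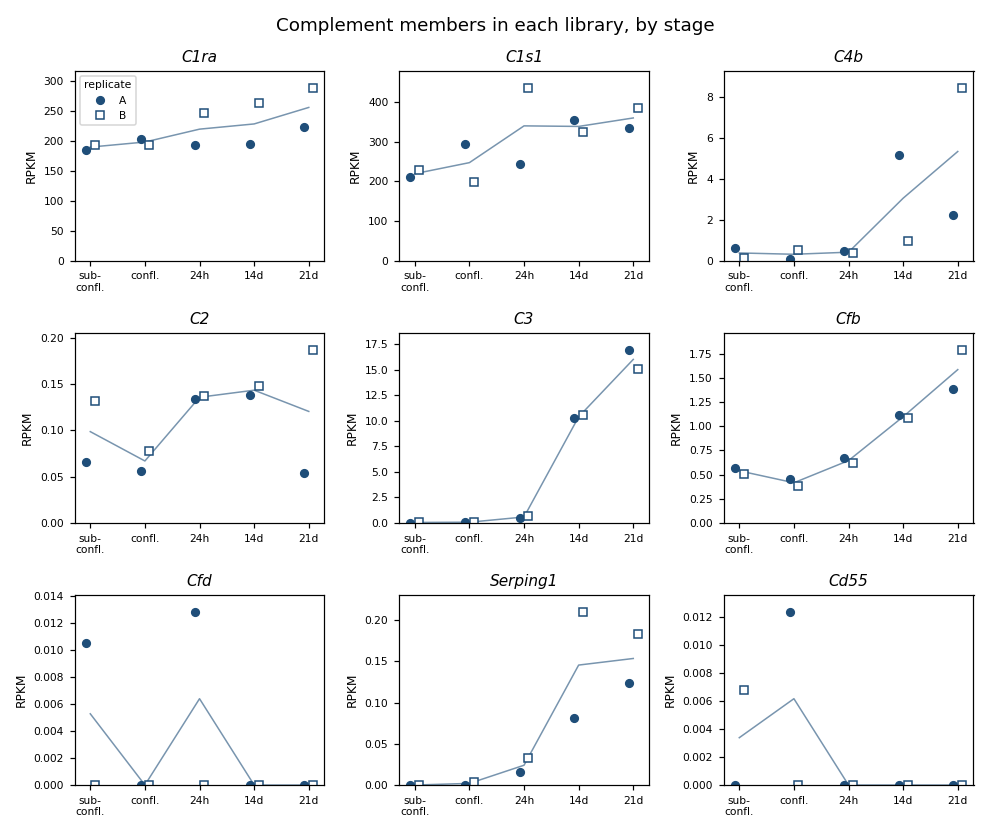
RPKM (y axis, linear, separate scale for each gene) of the 9 members in each library at the 5 stages (x axis). Filled circles are replicate A, open squares replicate B, and the line joins the means of 2 libraries. C3 sits under 0.7 RPKM up to 24h and above 10 RPKM at 14d and 21d, C4b differs widely between replicates, and Cfd and Cd55 stay under 0.015 RPKM.

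C3, the protein on which all the pathways converge, showed the largest change among the members with counts in subconfluent cells. The gene lies at chr17:57203970-57228136 on the minus strand of GRCm38. Its level was 0.0307 and 0.0511 RPKM in subconfluent cells, 0.0873 and 0.0458 RPKM in confluent cells, and 0.487 and 0.666 RPKM at 24h, for replicates A and B. It reached 10.2 and 10.5 RPKM at 14d and 16.9 and 15.1 RPKM at 21d. Libraries of subconfluent and confluent cells overlapped, and each later stage lay wholly above the stage before it. In RNA of whole cultures, more cells expressing a gene and more RNA per cell cannot be told apart. The counts behind these levels were 16 and 8 in subconfluent cells and 2988 and 6102 at 21d.

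C3 rose from subconfluent cells to 21d by 8.86 on the log2 scale, with a standard error (SE) of 0.34 (adjusted p = 3.6e-06, edgeR). The rise began within 24h of differentiation medium. Relative to confluent cells the change at 24h was 3.34 on the log2 scale (SE 0.29, adjusted p = 0.00192, edgeR), inside the set of libraries that share index sequences. From 24h to 14d it was 4.30 (SE 0.26, adjusted p = 0.000146, edgeR), a step that crosses the sets. The step from 21d against 14d gave 0.55 (SE 0.22, adjusted p = 0.191, edgeR), and that from subconfluent to confluent cells gave 0.67 (SE 0.37, adjusted p = 0.427, edgeR). C3 was the only member called at 24h against confluent cells, where 2.13% of all genes were called, and the only one called at 14d against 24h, where 5.98% were. The 24h call was lost when only confluent and 24h libraries were fitted (adjusted p = 0.212, log2 fold change 3.25), a fit in which 0 of 19562 genes were called.

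The 250 bases before the C3 start site are shown because the change at this gene carries the main result. The sequence is from RefSeq (GRCm38.p6), chr17:57228137-57228386, minus strand, and the capitals mark its 1 match to a C/EBP site, 45 bases before the start site.
C3: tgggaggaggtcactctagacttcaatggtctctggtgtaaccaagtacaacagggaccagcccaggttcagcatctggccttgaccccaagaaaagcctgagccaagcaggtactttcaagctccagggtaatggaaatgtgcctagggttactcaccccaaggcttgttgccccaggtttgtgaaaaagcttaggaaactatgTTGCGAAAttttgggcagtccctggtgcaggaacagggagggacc
Windows of 250 bases before to 50 bases after a start site were searched on both strands for the C/EBP site (TTGCNNAA), the gamma-activated site (TTCNNNGAA), the core of the interferon-stimulated response element (GAAANNGAAA) and the NF-kB site. Among 32851 windows of all genes, 10.8% held the C/EBP letters, 8.3% the gamma-activated site, 3.44% the interferon-stimulated core and 8.46% the NF-kB site. Windows were found for 5 members. The first of the C1s1 windows held 1 C/EBP match, 242 bases before its start site. The C1ra window held a C/EBP match at position 17 and a gamma-activated site at position 33, both counted from the start base as 1. No letters of the 4 motifs were found in the windows of Cfd and Cd55. A match is a string of letters here, and binding was not measured.

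Cfb encodes factor B, the protease of the alternative pathway convertase, and lies on the minus strand at chr17:34856374-34862518. It stood at 0.57 and 0.505 RPKM in subconfluent cells, 0.45 and 0.379 RPKM in confluent cells, and 0.67 and 0.618 RPKM at 24h. The level was 1.12 and 1.08 RPKM at 14d and 1.38 and 1.79 RPKM at 21d. Confluent libraries were lowest, and the stages from confluence onwards did not overlap. The log2 fold change from subconfluent cells to 21d was 1.67 (SE 0.20, adjusted p = 0.000417, edgeR). From confluent cells to 14d it was 1.63 (SE 0.20, adjusted p = 0.00125, edgeR). The step from 24h to 14d gave 0.89 and passed the adjusted p-value (0.0235, edgeR) at less than 2-fold. Cfb thus changed far less than C3, the protein with which factor B acts, with ratios of mean RPKM at 21d to subconfluent cells of 2.95 and 391. Gm20547, a gene model on the same strand, covers 79.5% of the exon bases of Cfb and 42.8% of those of C2. Gm20547 has no row of its own in the count table, and how reads in the shared bases were treated was not tested.

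C1ra and C1s1 encode the C1r and C1s proteases of the classical pathway. They were by far the most abundant members, within the top 2.54% of genes by mean RPKM at every stage. C1ra, at chr6:124512405-124523443 on the plus strand, gave 185 and 194 RPKM in subconfluent cells, 203 and 193 RPKM in confluent cells, 193 and 246 RPKM at 24h, 194 and 262 RPKM at 14d and 223 and 288 RPKM at 21d. Neighbouring stages overlapped, but both libraries of 21d were above both of subconfluent cells. C1s1, at chr6:124530345-124542359 on the minus strand, gave 211 and 228 RPKM in subconfluent cells, 296 and 200 RPKM in confluent cells, 245 and 436 RPKM at 24h, 354 and 324 RPKM at 14d and 336 and 385 RPKM at 21d. The replicates of 24h lay farther apart than those of any other stage.

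From subconfluent cells to 21d the log2 fold change of C1ra was 0.55 (SE 0.19, adjusted p = 0.0445, edgeR) and that of C1s1 was 0.83 (SE 0.26, adjusted p = 0.0323, edgeR). Both passed the adjusted p-value and neither reached 2-fold. No step between successive stages passed for either gene, and the F test over the 5 stages gave an adjusted p of 0.12 for C1ra and 0.0757 for C1s1 (edgeR). With library size alone as the scaling, the adjusted p of the long comparison was 0.172 for C1ra and 0.112 for C1s1.

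C4b encodes complement C4, which is cleaved by C1s, and lies at chr17:34728380-34743882 on the minus strand. Its level was 0.646 and 0.114 RPKM in subconfluent cells, 0.0988 and 0.531 RPKM in confluent cells and 0.466 and 0.367 RPKM at 24h. It was 5.16 and 0.954 RPKM at 14d and 2.24 and 8.44 RPKM at 21d. All 4 libraries of 14d and 21d were above all earlier ones, but replicates of one stage differed by several fold. The log2 fold change from subconfluent cells to 21d was 3.87 (SE 1.24, adjusted p = 0.0336, edgeR), and the F test gave an adjusted p of 0.0394 (edgeR). The call was lost without replicate A of the subconfluent stage (log2 fold change 5.65, adjusted p = 0.053, edgeR), without its replicate B (3.13, adjusted p = 0.149) and without replicate B of 21d (2.62, adjusted p = 0.167). It was also lost with the replicate letter in the model (0.0593).

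The C4b values moved with depth. In 5 of 5 stages the library with more counts had the higher C4b level, against 0 of 5 for C3, 1 of 5 for C1ra, 2 of 5 for C1s1 and for C2, and 4 of 5 for Cfb. C3 was therefore as one-sided in the opposite direction, with the shallower library higher at every stage. The ratio of 21d to subconfluent cells was 19.6 between the shallower libraries and 13.1 between the deeper ones. For C3 these ratios were 331 and 491. Replicate A of 14d was run in 2 lanes, which held 500 and 415 C4b counts, while the merged column held 2625. For C3 the same lanes held 3194 and 1313 counts and the merged column 4653. With the lane sums in place of the merged columns C4b kept its call. The part of depth in the C4b and C3 values was not tested.

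C2, which supplies the protease of the classical convertase, stayed low. At chr17:34862604-34898265, minus strand, it gave between 7 and 55 counts per library and between 0.0542 and 0.186 RPKM. Its log2 fold change from subconfluent cells to 21d was 0.50 (SE 0.59, adjusted p = 0.522, edgeR). Without replicate B of 21d the value turned to -0.70.

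Serping1 encodes C1 inhibitor, which inactivates C1r and C1s, and lies at chr2:84765387-84775444 on the minus strand. It gave 0 counts in both subconfluent libraries, 0 and 1 in confluent cells, 3 and 6 at 24h, 17 and 16 at 14d and 10 and 34 at 21d. Each library of 14d and 21d was above every earlier one. Counts scaled to the summed library totals of the stage (CPM) were at least 16.6-fold higher at 21d than in subconfluent cells, taking 3 counts over the subconfluent libraries as the floor (adjusted p = 0.00249, edgeR). At 14d they were 37.8 times those of confluent cells, with an exact 95% counting interval from 6.33 to 1538 (adjusted p = 0.00746, edgeR). The interval covers counting error only. Even at its highest, Serping1 reached 0.209 RPKM, far below the levels of C1ra and C1s1 that its product inhibits.

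Cfd, the gene of factor D, at chr10:79890853-79892655 on the plus strand, had 2 counts over all 10 libraries. Cd55, the gene of a membrane protein that speeds the decay of convertases, at chr1:130439027-130462744 on the minus strand, had 3. A count of 0 over the libraries of 21d allows up to 0.02155 CPM, the upper end of the exact 95% counting interval. Neither gene was detectable at this depth at 21d. Factor D is also known as adipsin, a product of adipocytes. Of 8 adipocyte markers, 5 stayed at or under a mean of 0.1 RPKM at every stage, among them Adipoq and Plin1. Of the 3 that were tested, Fabp4 was called higher and Pparg lower at 21d against subconfluent cells, where 27.6% of all genes were called. The summed level of the list ran from 0.854 to 2.28 RPKM.

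**Figure D2:**
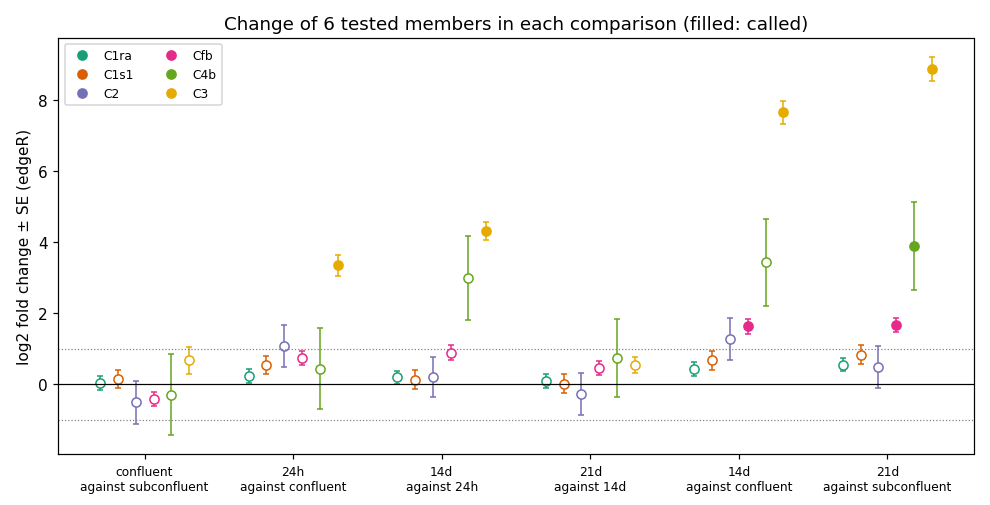
Log2 fold change (y axis, points) with its SE (bars) of C1ra, C1s1, C2, Cfb, C4b and C3 in each of the 6 comparisons (x axis). Filled points were called, and dotted lines mark 2-fold. C3 reaches 8.86 at 21d against subconfluent cells, with C4b at 3.87 and Cfb at 1.67.

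In the remaining comparisons, 0 members were called in confluent against subconfluent cells, where 1.43% of all genes were, and 0 at 21d against 14d, where 3.97% were (edgeR). At an unadjusted p under 0.05 the counts were 0 and 1, the latter being C3, where 3566 and 4950 of the 20808 genes tested passed. DESeq2 called 0 members in both, beside 466 and 962 of 18751 genes. Limma-trend also called 0 members in both. It called 128 and 537 of 20795 genes on log2(RPKM + 1), and 255 and 848 on log2(RPKM + 0.1). At 14d against confluent cells 3 members were called, C3, Cfb and Serping1, all higher, where 13% of all genes were called. The log2 fold change of C3 in that comparison was 7.64 (SE 0.32, adjusted p = 1.5e-05, edgeR). The median log2 fold change of the 7 tested members at 21d against subconfluent cells was 1.67, also with Serping1 at its lower bound, and 0.04 over all genes tested.

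Mouse carries near-identical copies of some of these genes, so their rows share sequence. Aligned along their transcripts, C1ra and C1rb were 98% identical, C1s1 and C1s2 95.9%, and C4b and C4a 96.1%. Of the 51-base stretches in the C1ra transcript, the length of a read, 47.6% occurred unchanged in C1rb. The share was 23.8% for C1s1 in C1s2, 34.6% for C4b in C4a and 13.1% for Cd55 in Cd55b. The most different aligned stretches are printed below for each pair because such reads can be assigned to 1 gene, with mismatched bases in capitals, on GRCm38 and each on its gene's strand.
C1ra, chr6:124522661-124522711 (+): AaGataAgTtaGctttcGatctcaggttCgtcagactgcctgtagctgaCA
C1rb, chr6:124580707-124580757 (+): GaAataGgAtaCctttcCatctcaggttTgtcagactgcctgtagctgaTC
C1s1, chr6:124531524-124531574 (-): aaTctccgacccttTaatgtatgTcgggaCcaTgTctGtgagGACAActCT
C1s2, chr6:124625746-124625796 (-): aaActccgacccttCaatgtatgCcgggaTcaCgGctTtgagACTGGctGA
C4b, chr17:34735434-34735484 (-): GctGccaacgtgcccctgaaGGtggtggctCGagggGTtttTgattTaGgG
C4a, chr17:34816090-34816140 (-): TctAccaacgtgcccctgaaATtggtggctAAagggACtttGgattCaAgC
These stretches hold 9 mismatches between C1ra and C1rb, 14 between C1s1 and C1s2 and 12 between C4b and C4a. At the other extreme, a read from exon 2 of either C4 gene can be the same in both, as in the following stretch of C4b at chr17:34743562-34743612, whose copy in C4a is at chr17:34823141-34823191.
C4b and C4a: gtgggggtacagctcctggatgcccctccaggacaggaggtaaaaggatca
How the counting treated reads that match both copies is not given in the sources used here.

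C1rb lay between 215 and 388 RPKM, above C1ra in every library. The ratio of C1ra to C1rb was 0.843 ± 0.0277 (SD, n = 2) in subconfluent cells and 0.669 ± 0.132 (SD, n = 2) at 21d. C1s2 rose from 34.1 and 13.3 RPKM in subconfluent cells to 111 and 100.3 RPKM at 21d, and was called there (log2 fold change 2.27, SE 0.46, adjusted p = 0.00485, edgeR). Without replicate A of subconfluent cells that value was 3.09 and without replicate B 1.71, and the ratio of 21d to subconfluent RPKM was 8.35 between the shallower libraries and 2.95 between the deeper ones. The ratio of C1s1 to C1s2 was 11.7 ± 7.77 (SD, n = 2) in subconfluent cells and 3.43 ± 0.567 (SD, n = 2) at 21d. The C1s1 row therefore held 77.3% of the RPKM of the pair at 21d, on average over the libraries. C4a, listed in the annotation as a processed transcript, ran from 0.872 RPKM in replicate B of subconfluent cells to 33.2 RPKM in replicate B of confluent cells, and its change to 21d on the log2 scale was 1.17 (SE 1.34, adjusted p = 0.505, edgeR). That value was 4.27 without replicate A of subconfluent cells and 0.23 without replicate B, and the same ratio was 18.5 between the shallower libraries and 1.08 between the deeper ones.

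After summing the counts of each pair, the change from subconfluent cells to 21d on the log2 scale was 0.73 for C1ra with C1rb (adjusted p = 0.00421, edgeR) and 1.05 for C1s1 with C1s2 (adjusted p = 0.0101, edgeR), the latter now past 2-fold. For C4b with C4a it was 1.51 and no longer passed (adjusted p = 0.388, edgeR).

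**Figure D3:**
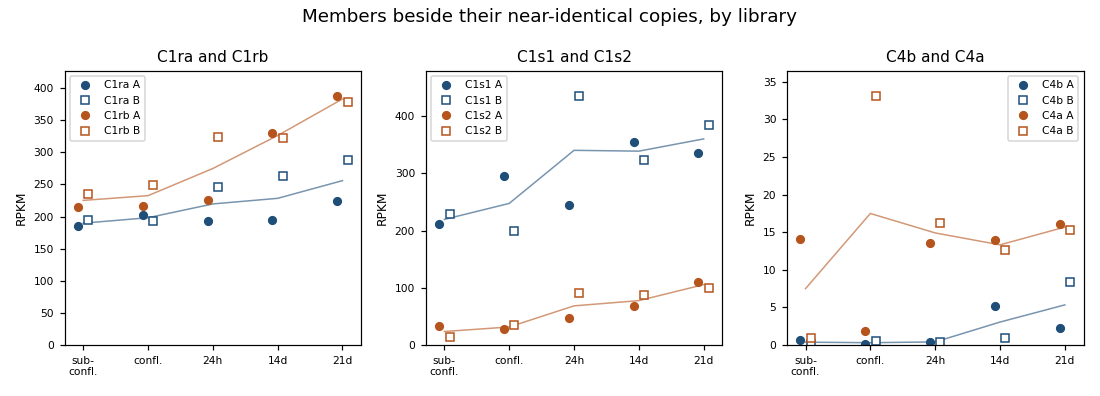
RPKM (y axis, linear from 0) of C1ra and C1rb, C1s1 and C1s2, and C4b and C4a in each library at the 5 stages (x axis), with members in blue and their copies in orange, replicate A filled and replicate B open, and lines through the means. C1rb and C1s2 lie at 388 and 111 RPKM in replicate A of 21d, and C4a spans 0.872 to 33.2 RPKM with its extremes in single libraries of the first stages.

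The rest of the complement system was described through 46 further genes in 4 lists, of which 21 passed the filter. From subconfluent cells to 21d 10 of these 21 were called, all higher, where 27.6% of all genes tested were called, and their median log2 fold change was 1.17 beside 0.04 over all genes. Of the 16 genes of C1q, the lectin pathway and further C1 and C4 rows, 8 were tested and 2 called, C1s2 and Colec11, a soluble collectin. C1q itself, which carries C1r and C1s in the active complex, was all but absent, with 1 count of C1qa and none of C1qb or C1qc in 10 libraries. Masp1, a protease of the lectin pathway, was present at 7.1 to 40.5 RPKM and was not called.

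Of the 8 terminal pathway genes 2 were tested, C8g and Cfp, the gene of properdin, which stabilises the alternative convertase. Both were called at 21d against subconfluent cells, where 27.6% of all genes were. Their log2 fold changes were 1.32 (SE 0.21) and 1.20 (SE 0.29), at levels of at most 2.59 RPKM. The Cfp call was lost without replicate A or B of subconfluent cells or replicate B of 21d (adjusted p = 0.0804, 0.0616 and 0.0582, edgeR). C6, C8b and C9 had no count in any library and the C5 gene Hc had 10 in all. Of 9 receptor genes 2 were tested and 1 called, Itgb2, the shared chain of the leukocyte complement receptors, at 0.00959 and 0 RPKM in subconfluent cells and 1.43 and 1.61 RPKM at 21d. Its partner Itgam stood between 5.0 and 9.86 RPKM and was not called (adjusted p = 0.0507, edgeR). The anaphylatoxin receptor gene C3ar1 had 3 counts in all.

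Of the 13 genes of soluble and membrane regulators 9 were tested. At 21d against subconfluent cells 5 were called, each higher, beside 27.6% of all genes. Vtn, the gene of vitronectin, which blocks the membrane attack complex, gave 0 counts in subconfluent cells, 1.13 and 0.862 RPKM at 14d and 1.18 and 1.1 RPKM at 21d. Clu, the gene of clusterin, went from 0.57 and 0.405 RPKM in subconfluent cells to 1.79 and 1.73 RPKM at 21d. The membrane regulators Cd46 and Cd59a were called but stayed under 0.5 RPKM. C1qbp, a C1q-binding protein of mitochondria, moved the other way, with 84.7 and 88.5 RPKM in subconfluent cells and 54.8 and 52.7 RPKM at 21d (log2 fold change -0.57, SE 0.12, adjusted p = 0.00617, edgeR), less than 2-fold. The factor I gene Cfi, whose product cleaves C3b, had 3 counts in all.

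**Figure D4:**
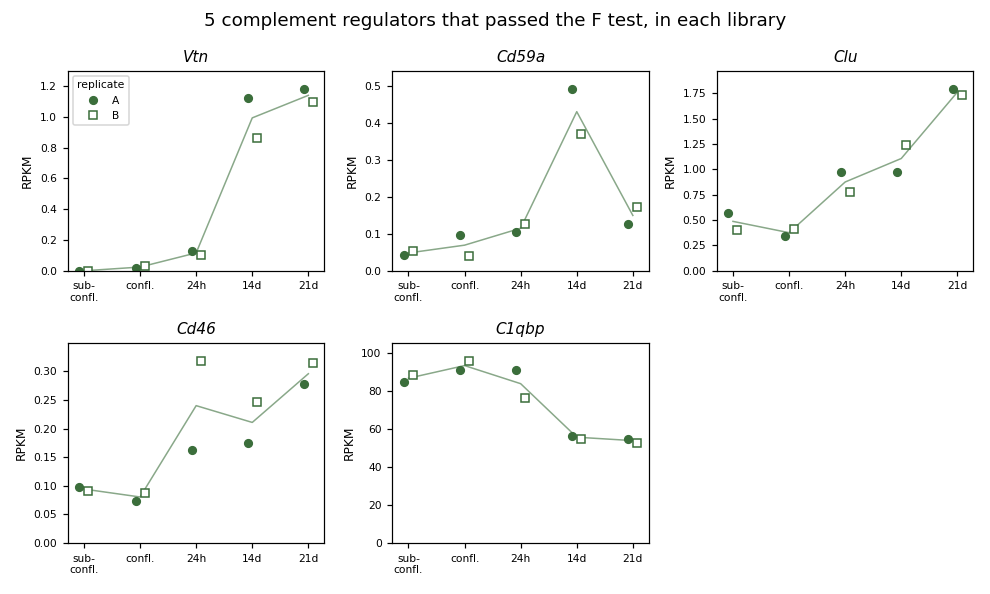
RPKM (y axis, linear from 0, separate scale for each gene) of 5 regulators that passed the F test, in each library at the 5 stages (x axis). Filled circles are replicate A, open squares replicate B, and the line joins the means. Cd59a is highest at 14d, at 0.492 RPKM in its highest library, Vtn is at 0 RPKM in subconfluent cells, and C1qbp falls from 95.5 to 52.7 RPKM between its highest and lowest library.

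Hepatic complement genes belong to the acute-phase response, in which interleukin-6 and interleukin-1 act through STAT3, C/EBP and NF-kB factors, and interferons also induce several complement genes. Of 9 acute-phase genes 8 were tested, and 7 were called at 21d against subconfluent cells, all higher, beside 27.6% of all genes. The remaining one, Ptx3, gave -0.54 (adjusted p = 0.0125, edgeR). The median log2 fold change of the list was 5.89, and 5.24 with genes of at most 3 subconfluent counts set at that floor. Haptoglobin, Hp, was at 0.0218 and 0 RPKM in subconfluent cells, 4.94 and 3.16 RPKM at 24h and 12.8 and 18.8 RPKM at 21d. Lcn2, the gene of lipocalin 2, gave no count before differentiation medium and 0.353 and 0.17 RPKM at 24h. Orm1 also had no count before 24h, and Steap4 stayed under 0.03 RPKM up to 24h and was at 1.02 and 1.01 RPKM at 14d. Like C3, Hp was called at 24h against confluent cells, with Cp, Lcn2 and Lbp, where 2.13% of all genes were called. With only the confluent and 24h libraries fitted, 0 of 19562 genes were called, so these calls were lost as well.

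Of 19 transcription factors and receptors known to act on complement genes all were tested, and 5 were called at 21d against subconfluent cells, all higher, a share near the 27.6% of all genes called there. Those with the largest changes were Irf7 (log2 fold change 3.20, SE 0.22), Irf9 (2.03, SE 0.15), Cebpb (1.67, SE 0.31) and Il6ra (1.45, SE 0.40). At 21d against 14d 2 of the 19 were called, Irf7 and Irf9, where 3.97% of all genes were. Cebpb was at 30.3 and 45.3 RPKM in subconfluent cells and 116 and 106 RPKM at 21d. At any fold change 10 of the list passed the adjusted p-value there, 8 higher and 2 lower (edgeR). The median over the list was 0.05. The Il6ra call was lost without any 1 of the subconfluent or 21d libraries (adjusted p from 0.068 to 0.102, edgeR) and with library size alone as the scaling (0.0505). Of 15 interferon-stimulated genes 14 were tested, and 8 were called at 21d against 14d, all higher, where 3.97% of all genes were called. At 14d against 24h 1 was called, where 5.98% were. Usp18 was at 0.158 and 0.155 RPKM at 14d and 1.71 and 1.88 RPKM at 21d, and Oasl2 went from 0.406 and 0.369 RPKM to 2.94 and 3.22 RPKM.

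Macrophages are a rich source of C1q, C3 and factor B, so their markers were read in the same libraries. Of 12 markers, 8 stayed at or under a mean of 0.1 RPKM at every stage. Ptprc, the pan-leukocyte gene CD45, had 0 counts in all libraries and Adgre1, the gene of F4/80, had 1. Of the 6 that were tested 1 was called at 21d against subconfluent cells, where 27.6% of all genes were called. It was Spi1, which stayed under 0.1 RPKM. Lyz2 was between 9.81 and 16.1 RPKM, Csf1r between 1.83 and 3.19 RPKM and Cd68 between 0.464 and 0.936 RPKM. Tyrobp was at 0 to 0.842 RPKM in 7 libraries and at 179, 214 and 256 RPKM in replicate B of confluent cells, replicate B of 14d and replicate A of 21d, and the summed level of the list, 13.3 to 273.7 RPKM, followed it.

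Across the 10 libraries the log2 CPM of C3 correlated with those of Serping1 (Pearson r = 0.973) and Cfb (0.949). The correlation was lower with C1s1 (0.84), C1ra (0.82), C4b (0.808) and C2 (0.482). The libraries share stages and depth, and the values are descriptive. Among 11991 further genes, limited to means of 5 CPM or more, the profile most like C3 was that of Itgbl1 (r = 0.997). Those most like Cfb were Pmp22 (r = 0.988) and Fbxw17 (r = 0.986), those most like C1ra were Sgpp1 (0.912) and Clip3 (0.896), and those most like C1s1 were S100pbp (0.95) and Tmem127 (0.943). For C4b they were Usp3 (0.939) and Vamp4 (0.922), for C2 Gm18666 (0.864) and Gm21677 (0.829), and for Serping1 Gm11512 (0.99) and Gm13340 (0.986).

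**Figure D5:**
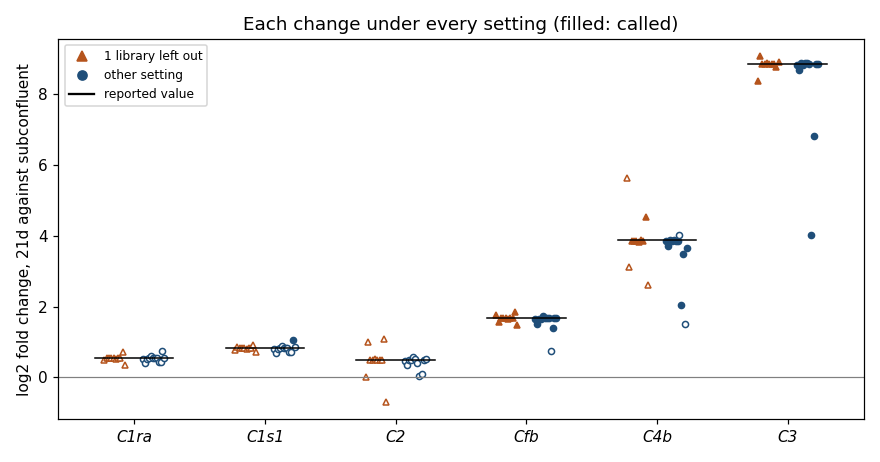
Log2 fold change at 21d against subconfluent cells (y axis) of 6 tested members (x axis) under each alternative. Triangles leave out 1 library, circles are other settings, filled symbols were called and black lines are the reported values. C3 was called under every setting that tested it, the C4b values spread from 1.51 to 5.65, and 1 setting turned C2 to -0.70.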

How the data were processed

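RNA of 10 libraries, 2 for each of 5 stages, was analysed. The counts were deposited by the authors as integers, without normalization, for 40620 Ensembl identifiers. The RPKM values, also deposited, are these counts divided by gene length and reads. Per the submitters' processing notes, mm10, FastQC, TopHat2 2.0.9 and R 3.0.1 were used. The counter and annotation are not given in the sources used here. For 2 libraries run in 2 lanes the merged column was used. The RPKM table held 40602 complete rows.

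Stages came from the labels. Identifiers were matched to GENCODE on GRCm38 (39547 with a symbol). Counts were fitted in edgeR 4.0.16 (R 4.3.3), with TMM, filterByExpr (20808 genes kept), 5 groups, 6 comparisons and an F test, and Benjamini-Hochberg adjustment over all genes tested. SE is the log2 fold change divided by the root of F. The script was tested on simulated data. Named genes were the members, complement genes by list, at most 4 called genes of each other list with the largest change at 21d against subconfluent cells, and for each tested member the 2 genes of most like profile (Pearson, log2 CPM, prior count 2, mean of at least 5 CPM). Members and lists were chosen with earlier results of these data known. Alternatives were DESeq2 1.42.0 and its size factors, library size alone, other filters and fold limits, fewer samples, a replicate block, limma-trend (limma 3.58.1) on log2(RPKM + 1) and log2(RPKM + 0.1), summed copies, summed lanes, and each library left out. Protein sequence features were not analysed here. Of the genes that these rules name, 2 are not reported here. Depth ran from 44736156 to 162939333 counts, which sets the precision of low members.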

Additional observations from a re-analysis of the deposited data

How the results depend on the processing

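Of 163 counts of members called or passing under an alternative, 152 were within 1.5 times the reported count. Requiring at least 10 counts in every sample, which leaves out C3 and Serping1 by its construction, gave 0 members called at 24h against confluent cells, 0 at 14d against 24h and 2 at 21d against subconfluent cells. Limma-trend on log2(RPKM + 1), where the pseudocount lowers the fold of genes near or under 1 RPKM, gave 0 at 24h against confluent cells, 1 at 14d against confluent cells and 2 at 21d against subconfluent cells. Fitting only the 2 groups compared gave 0 at 24h against confluent cells. At 14d against 24h, 2 members were called with any fold change and 2 with the replicate letter as a block, the cause of the latter not being tested. With 1 library left out, the count was 1 to 2 at 14d against 24h, 3 to 4 at 21d against subconfluent cells and 3 to 4 in the F test, with 0, 1, 0 and 3 unchanged in the other comparisons in order of stage. C2 at 21d against subconfluent cells ran from -0.70 to 1.08, the lowest without replicate B of 21d (adjusted p = 0.541), the stage then having 1 library assumed to vary like the others. In counts with no length the ratio of C1ra to C1rb in subconfluent cells was 0.956. The log2 differences of A and B correlated between stages by -0.184 to 0.0995, so the letters marked no strong difference shared by the stages. Whether libraries of the same letter were paired cannot be told from these values. Besides 14d against 24h, the block left counts within 1.5 times the reported ones, with the C4b call lost at 21d against subconfluent cells.

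Library size alone shifted the median of all genes at 21d against subconfluent cells to -0.12 on the log2 scale. Depth limited Cfd, Cd55, Serping1 and C2, and with 2 libraries a stage the spread rests on all stages together. The log2 ratio of the replicates had an SD of 1.02 at 24h and 0.835 to 0.853 at the other stages.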
